A study of Mus musculus with 4 samples.

Results

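The cells described here are the 346 that the authors named Macro among 33368 CD45+ cells from mouse melanomas, chosen by that name alone, 99 of 7970 cells in RTT, 130 of 6836 in RTT_ROSA26, 21 of 8266 in NTT and 96 of 10296 in RTT_PTGS12KO. The tumours of all 4 samples grew from YUMM1.7 mouse melanoma cells, which carry mutant Braf and lack Cdkn2a, and which were made to express ovalbumin. The hosts were Rag2-/- mice, which form no T or B cells of their own, and all 4 received ovalbumin-specific OT-1 T cells on day 7, with live CD45+ cells sorted on day 10, 72 h later. NTT is the line Y1.7_NTT_3A6, which had met no targeted therapy, and RTT is the line Y1.7_RTT_2B12, which is resistant to it. RTT_ROSA26 is a resistant line with a control guide against Rosa26, and RTT_PTGS12KO is a resistant line in which Ptgs1 and Ptgs2, the genes of the cyclooxygenases that start prostaglandin synthesis, were knocked out in the cancer cells by inducible Cas9. The edit was made in the cancer cells and not in the host, so levels of Ptgs1 and Ptgs2 in macrophages check no label. Each group held 1 sample of 1 tumour by the labels, whereas figure legends of the study speak of pooled tumours, and which holds here was not settled. No difference between samples therefore has a replicate check, no test between samples was made, and the 95% intervals given in parentheses cover counting error only, not variation between mice.

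Macrophages of many mouse tissues fall into a perivascular kind with high LYVE1, a receptor for the matrix sugar hyaluronan, and little MHC class II, and a kind with little LYVE1 and much MHC class II. The first kind is known for uptake receptors such as CD163 and FOLR2 and for chemokines such as CCL8, and the second for monocyte origin and antigen presentation. Retnla, which encodes the secreted protein RELM-alpha, is switched on by interleukin-4 and interleukin-13 through STAT6, whereas interferon-gamma switches on Cxcl9, the guanylate-binding proteins and the immunity-related GTPases.

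The Macro cells yielded 1026420 UMIs (unique molecular identifiers, each 1 counted transcript) in RTT, 1107533 in RTT_ROSA26, 259206 in NTT and 1277405 in RTT_PTGS12KO, with medians of 9252, 8421.5, 12987 and 12731 UMIs per cell. Levels are given as CPM, the UMIs of a gene or list per 1000000 UMIs of the Macro cells of a sample. The macrophage label was checked against cDC2 cells, not against cells named as monocytes, and held there. The summed level of 8 general macrophage markers, among them Adgre1 and the C1q genes, was 13777 CPM in RTT, 13029.9 in RTT_ROSA26, 9112 in NTT and 6451 in RTT_PTGS12KO, against 1619.7 to 1831 CPM in cDC2 cells. A list of 8 cDC2 markers summed to 179 to 389.9 CPM, against 1304 to 1518 in cDC2 cells, and Flt3 was at 0 in all 4 samples. The lists of mast cell, eosinophil, NK cell, T cell, B cell and melanoma markers each summed to at most 4.70 CPM in each sample, and no UMI of a B cell marker was found. A list of 5 monocyte markers was present, at 1487 CPM in RTT, 1229 in RTT_ROSA26, 3927 in NTT and 2201 in RTT_PTGS12KO. Of 346 cells, 345 held a UMI of at least 1 of the 9 markers, and 160 (46.2%) held at least 4 of them. Of 98 cell barcodes found in more than 1 of the 3 droplet loads, 2 belonged to a Macro cell.

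Macro cells were a larger share of CD45+ cells in the resistant tumours with intact Ptgs genes than in the others. The share was 1.24% (1.01 to 1.51%) in RTT, 1.90% (1.59 to 2.25%) in RTT_ROSA26, 0.254% (0.157 to 0.388%) in NTT and 0.932% (0.756 to 1.14%) in RTT_PTGS12KO, with exact Clopper-Pearson intervals. Over the 3 droplet loads, which are technical repeats of each sample, it ran from 0.862 to 1.67% in RTT, 1.71 to 2.08% in RTT_ROSA26, 0.246 to 0.262% in NTT and 0.796 to 1.02% in RTT_PTGS12KO, so that the loads of RTT and RTT_PTGS12KO overlapped. Samples were set against each other in the therapy contrast (NTT against RTT), the knockout contrast (RTT_PTGS12KO against RTT_ROSA26) and the control contrast (RTT_ROSA26 against RTT), whose tumours are both resistant with intact Ptgs genes and give the only yardstick here for the difference between tumours of one kind. The control contrast shares RTT with the therapy contrast and RTT_ROSA26 with the knockout contrast. RTT_ROSA26 also carries a control guide that RTT does not, so that contrast holds more than variation between tumours. The log2 ratio of shares was -2.29 (-3.04 to -1.60) in the therapy contrast, -1.03 (-1.42 to -0.64) in the knockout contrast and 0.61 (0.23 to 1.01) in the control contrast. The order depended on the denominator. Of macrophage-named cells, which are few in NTT, the Macro share was 1.45% (1.18 to 1.76%) in RTT, 2.12% (1.78 to 2.52%) in RTT_ROSA26, 6.38% (3.99 to 9.59%) in NTT and 1.81% (1.47 to 2.21%) in RTT_PTGS12KO. On that denominator the log2 ratio was 2.14 (1.39 to 2.83) in the therapy contrast and -0.23 (-0.63 to 0.16) in the knockout contrast. Both shares are also set by the sort for CD45+ cells and by the authors' cut between cell type names.

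**Figure D1:**
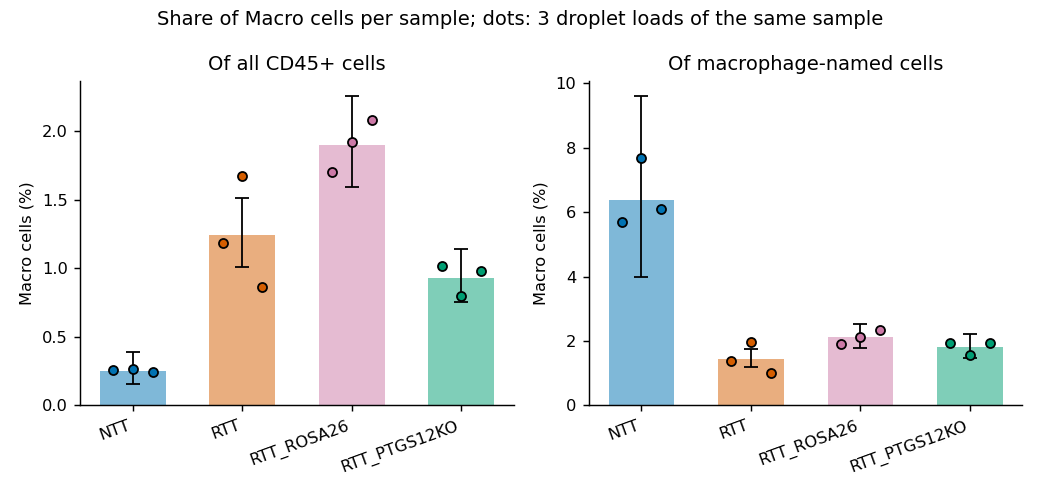
Bars give the share of Macro cells in percent of all CD45+ cells (left) and of macrophage-named cells (right) in the 4 samples, with exact 95% intervals, and dots give the 3 droplet loads of each sample. NTT is lowest at 0.254% on the left and highest at 6.38% on the right.

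The 9 markers did not share 1 pattern over the samples. Lyve1 (chr7:110850607-110863239 of GRCm38, minus strand, protein coding) reached 494 (452 to 539) CPM in RTT, 436 (398 to 477) in RTT_ROSA26, 204 (153 to 267) in NTT and 79.8 (65.1 to 96.9) in RTT_PTGS12KO. Cd163, the receptor that takes up haemoglobin bound to haptoglobin, reached 341 (306 to 379) CPM in RTT, 250.1 (222 to 281) in RTT_ROSA26, 131 (90.8 to 183) in NTT and 46.2 (35.2 to 59.6) in RTT_PTGS12KO. Both were highest in RTT and RTT_ROSA26 and lowest in RTT_PTGS12KO. Ccl8, a chemokine that attracts monocytes and T cells, reached 11845 CPM in RTT, 9965 in RTT_ROSA26, 4259 in NTT and 3572 in RTT_PTGS12KO. Pltp, which moves phospholipids between lipoproteins, reached 1471 CPM in RTT, 1517 in RTT_ROSA26, 995 in NTT and 472 in RTT_PTGS12KO. Clec10a, a lectin that binds galactose-type sugars, reached 362 CPM in RTT, 436 in RTT_ROSA26, 162 in NTT and 168 in RTT_PTGS12KO. These 3 genes too were lower in NTT and RTT_PTGS12KO than in RTT and RTT_ROSA26. Cd209f, a lectin of the DC-SIGN family, reached 110.1 CPM in RTT, 364 in RTT_ROSA26, 201 in NTT and 26.6 in RTT_PTGS12KO, but in NTT 69.2% of its UMIs came from 1 cell.

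Retnla and Ear2 took another order. Retnla (chr16:48842551-48844461, plus strand, protein coding) reached 54.6 (41.2 to 70.8) CPM in RTT, 753 (703 to 806) in RTT_ROSA26, 231 (177 to 298) in NTT and 1357 (1294 to 1422) in RTT_PTGS12KO. It was found in 7 of 99 RTT, 25 of 130 RTT_ROSA26, 2 of 21 NTT and 32 of 96 RTT_PTGS12KO cells, and in NTT 1 cell held 75.0% of its UMIs. Retnla was thus lowest in RTT and highest in the knockout. Ear2, a secreted ribonuclease of an eosinophil-associated family, reached 84.8 (67.9 to 105) CPM in RTT, 446 (408 to 487) in RTT_ROSA26, 243 (187 to 311) in NTT and 527 (488 to 568) in RTT_PTGS12KO, again lowest in RTT and highest in RTT_PTGS12KO. Prg4, which encodes lubricin, was at 0 of 259206 UMIs in NTT and 0 of 1026420 in RTT, and reached 391 CPM in RTT_ROSA26 and 183 in RTT_PTGS12KO, in 5 cells each. Ear2, Lyz1, Gbp2b and the Cd209 genes belong to families of similar copies, among which 3' tags may be split.

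The promoter of Retnla is shown because Retnla differed most among the samples of the 9 markers found in all 4, and because STAT6 is known to bind sites of the form TTCNNNNGAA. The 250 bases before the RefSeq start, at chr16:48842359-48842608 of GRCm38.p6 on the plus strand, hold 1 match, 145 bases before the start, in capitals. That start lies inside the gene span given above, which comes from another annotation.
Retnla: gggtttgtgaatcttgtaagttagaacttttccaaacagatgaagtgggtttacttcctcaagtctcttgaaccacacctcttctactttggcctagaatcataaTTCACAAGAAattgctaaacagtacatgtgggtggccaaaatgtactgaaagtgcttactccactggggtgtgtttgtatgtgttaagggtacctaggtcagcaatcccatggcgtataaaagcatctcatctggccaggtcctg
RefSeq promoters were found for 6 of the 9 markers, and of these Retnla alone held this motif, on either strand. Counted per promoter and not per gene, 5.85% of 32851 mouse promoters held it. A match is a description of the letters and not evidence of binding.

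In the other macrophages (the TAM clusters and Ctsk_Macro, 18242 cells) the markers were much lower. The clusters in this group had unlike shares over the samples. TAM_C1q and TAM_Spp1 were 12 and 20 of its 308 cells in NTT and 3412 and 2057 of 6734 in RTT. They were 2247 and 1500 of 5993 in RTT_ROSA26 and 1556 and 1267 of 5207 in RTT_PTGS12KO. Ratios between samples in the other macrophages are therefore not within like cells. Retnla ranged over 0 to 14.1 CPM there, Lyve1 over 0 to 4.83, Ear2 over 0 to 5.02, Cd163 over 0.984 to 10.9, Clec10a over 4.37 to 14.8, Ccl8 over 139 to 448 and Pltp over 53.6 to 98.2. The genes that most set Macro cells apart in the sample where the difference was smallest were, from the top, Retnla, Cd226, Ear2, Lyve1, Cd209f, Ednrb, Ms4a8a, Cd163, Clec10a, Clec4b1, Saa3, Lrg1, Ccl8, Lyz1 and Ifitm6, which describes the authors' naming and is not a test. Cd226, an adhesion receptor better known on T and NK cells, reached 71.1 CPM in RTT, 54.2 in RTT_ROSA26, 92.6 in NTT and 227 in RTT_PTGS12KO. Ednrb, the endothelin receptor type B, reached 163 CPM in RTT, 322 in RTT_ROSA26, 147 in NTT and 34.4 in RTT_PTGS12KO. Saa3, an acute-phase apolipoprotein, reached 663 CPM in RTT, 438 in RTT_ROSA26, 1115 in NTT and 165 in RTT_PTGS12KO. Ms4a8a ranged over 146 to 247 CPM and differed less over the samples than these. Spp1 (osteopontin), a matrix protein of many tumour macrophages, reached 388 CPM in RTT, 279 in RTT_ROSA26, 65.6 in NTT and 318 in RTT_PTGS12KO in Macro cells against 1021 to 5510.2 CPM in the others. Timd4 and Vsig4, markers of long-lived resident macrophages, were rare, at no more than 25.3 and 50.2 CPM.

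**Figure D2:**
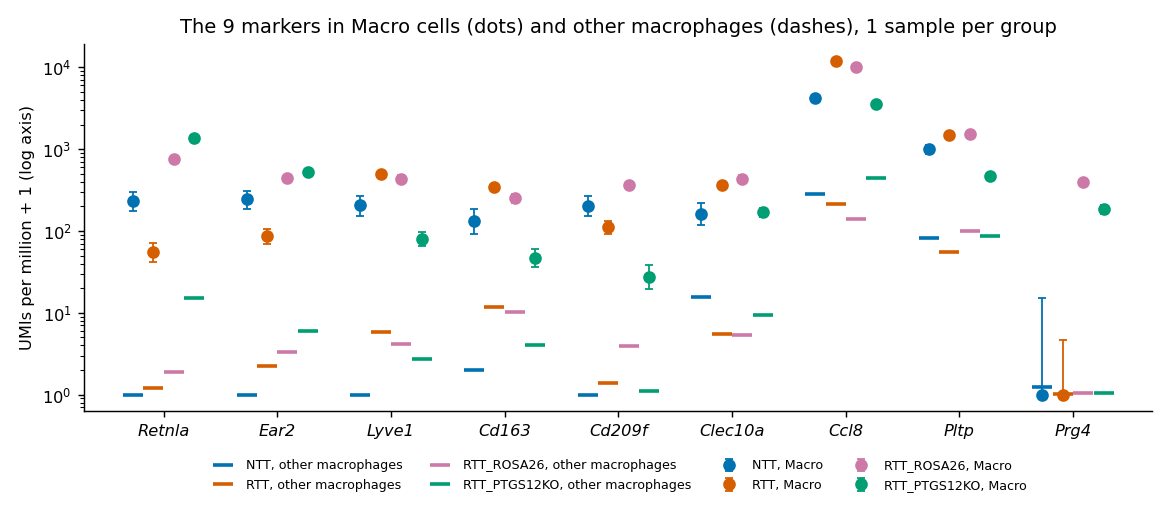
Dots give the level of the 9 markers in Macro cells of each sample as CPM + 1 on a log axis, with exact Poisson 95% intervals, and dashes give the same in the other macrophages. Lyve1, Cd163, Ccl8, Pltp and Clec10a are lower in RTT_PTGS12KO than in RTT and RTT_ROSA26, whereas Retnla and Ear2 are highest there.

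Lyve1 and Retnla marked largely separate cells, and many Macro cells held neither. Of 346 cells, 122 held a UMI of Lyve1, 66 of Retnla, 8 of both and 166 of neither. Retnla was found in 6.56% of 122 Lyve1+ cells (at least 1 UMI of Lyve1) and in 25.9% of 224 Lyve1- cells, and was the rarer in Lyve1+ cells in each of the 4 samples. Ear2 was found in 2.46% of Lyve1+ and 40.2% of Lyve1- cells, and in 68.2% of Retnla+ against 17.1% of Retnla- cells. Folr2, the folate receptor beta, went with Lyve1, at 98.4% of Lyve1+ and 41.5% of Lyve1- cells, as did Cd163 at 51.6% and 14.7%. Lpl, which encodes the secreted lipoprotein lipase, was found in 15.6% of Lyve1+ and 46.0% of Lyve1- cells in all. By sample these shares were 2.08% and 1.96% in RTT, 13.8% and 29.2% in RTT_ROSA26, 60.0% and 93.8% in NTT and 63.6% and 77.6% in RTT_PTGS12KO. The pooled shares of Lpl thus also reflect how many Lyve1+ cells each sample gave. The 10 cells with Prg4 were the 10 with Alox15, the 12/15-lipoxygenase, and none of them held a UMI of Lyve1 or Retnla. Gata6, the factor of serous cavity macrophages that share Prg4 and Alox15, was at 8.13 CPM in RTT_ROSA26 and 1.57 in RTT_PTGS12KO, the samples with these cells, and at 0 in the other two.

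The share of Lyve1+ cells among Macro cells differed over the samples. It was 48.5% (38.3 to 58.7%) in RTT, 44.6% (35.9 to 53.6%) in RTT_ROSA26, 23.8% (8.22 to 47.2%) in NTT and 11.5% (5.86 to 19.6%) in RTT_PTGS12KO. After each cell was thinned to 3000 UMIs, which left out 2, 5, 1 and 0 cells, it was 37.1%, 37.6%, 20.0% and 8.33%, against 0.198% of 1012 NK cells, which should lack the gene. Thinned in the same way, Retnla+ cells were 3.09%, 17.6%, 10.0% and 26.0% of Macro cells, against 0.0988% of NK cells. Folr2+ cells were 63.9%, 68.0%, 55% and 22.9%, against 0.790% of NK cells. The knockout thus held the smallest share of cells with Lyve1 or Folr2 and the largest with Retnla, and the interval of its Lyve1+ share did not reach those of RTT and RTT_ROSA26 but overlapped that of NTT. A low level summed over Macro cells can mean fewer Lyve1+ cells or less RNA in each. The values within Lyve1+ and Lyve1- cells cannot tell these apart, because less Lyve1 RNA in a cell can also make it Lyve1-. They describe only cells with and without a found UMI of Lyve1.

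What else differed between Lyve1+ and Lyve1- Macro cells was tested with edgeR's quasi-likelihood test on UMIs summed over the Lyve1+ and over the Lyve1- cells of each sample, with the 4 samples, which are 4 conditions and not replicates of 1, as blocks and Lyve1 itself left out. Of 6152 genes tested, 281 (4.57%) were higher and 348 (5.66%) lower in Lyve1+ cells at an adjusted p under 0.05 (Benjamini-Hochberg). There were 48 Lyve1+ and 51 Lyve1- cells in RTT, 58 and 72 in RTT_ROSA26, 5 and 16 in NTT and 11 and 85 in RTT_PTGS12KO. Lyve1+ cells were the deeper in each sample, at medians of 11427.5, 8901, 19565 and 12744 UMIs against 7708, 8022, 10873.5 and 12718. With cells thinned to 3000 UMIs, 102 genes were higher and 138 lower of 2792 tested. Without RTT the counts were 142 and 110, and without RTT_ROSA26 162 and 132, of which 137, 108, 150 and 129 were among the genes called with all samples. DESeq2 called 173 higher and 194 lower, and edgeR with no block for the sample 77 and 66.

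Most of the markers rose with Lyve1. Of the 8 markers other than Lyve1, 5 rose and 2 fell. Ccl8 stood at 17728, 15765, 9649 and 18042 CPM in the Lyve1+ cells of RTT, RTT_ROSA26, NTT and RTT_PTGS12KO, the order used for all values of this comparison, and at 4059, 4785, 1354 and 1724 in their Lyve1- cells, a log2 fold change of 2.41 (SE 0.22, adjusted p = 1.5e-05). Cd163 rose by 2.97 (SE 0.45, adjusted p = 0.000879), Clec10a by 1.41 (SE 0.17, adjusted p = 0.000125), Pltp by 0.75 (SE 0.14, adjusted p = 0.00341) and Cd209f by 4.22 (SE 0.35, adjusted p = 8.8e-06). Ear2 fell, from 195, 832, 374 and 571 CPM in Lyve1- cells to 1.71, 13.4, 0 and 179.7 in Lyve1+ cells, with a log2 fold change of -4.15 (SE 0.57, adjusted p = 0.000434). Prg4 had 433 and 234 UMIs in Lyve1- cells of RTT_ROSA26 and RTT_PTGS12KO and 0 in all Lyve1+ cells, in 5 cells each, so no fold is given. Retnla, at 115, 675, 356 and 1454 CPM in Lyve1- and 8.55, 840.1, 0 and 594 in Lyve1+ cells, did not pass, with a log2 fold change of -1.39 (SE 0.48, adjusted p = 0.0872), and it was the higher in Lyve1+ cells in RTT_ROSA26.

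The 10 largest rises were those of Cd209g, A4galt, Dmpk, Cd209f, Adgrg1, Cd55, C6, Tslp, Cp and S1pr1, with log2 fold changes from 3.39 to 4.46. They include the lectins Cd209g and Cd209f, the complement regulator Cd55, the terminal complement component C6, the ferroxidase ceruloplasmin (Cp) and the receptor for sphingosine-1-phosphate (S1pr1). Cd209g, at 71.8, 256, 286 and 76.0 CPM in Lyve1+ and 4.53, 13.7, 0 and 2.65 in Lyve1- cells, rose by 4.46 (SE 0.34, adjusted p = 8.74e-06). C6 rose by 3.77 (SE 0.36, adjusted p = 2.77e-05) and S1pr1 by 3.39 (SE 0.38, adjusted p = 8.65e-05), both higher in 4 of 4 samples. Cd55 and, with few UMIs in any sample, Dmpk were found in no Lyve1+ cell of RTT_PTGS12KO, and Adgrg1 in no cell of NTT. Besides Prg4 and Alox15, which like Dhrs9 had no UMI in any Lyve1+ cell, the largest falls were those of Dhrs9, Plxdc2, Ramp3, Serpinb2, Tnip3, Areg, Ear2 and Klrb1b. By DESeq2, Cd55 and Serpinb2 had adjusted p of 0.282 and 0.745, and without RTT Klrb1b had 0.0586 in edgeR. Dhrs9, a retinol dehydrogenase, had 0 UMIs in Lyve1+ cells and 7, 8, 4 and 31 in Lyve1- cells of the 4 samples. Tnip3, an inhibitor of NF-kappaB signalling, stood at 22.6, 83.8, 101 and 229 CPM in Lyve1- and 0, 1.91, 0 and 20.7 in Lyve1+ cells, a log2 fold change of -4.58 (SE 0.44, adjusted p = 2.77e-05). Areg, a growth factor for epithelia, fell with a log2 fold change of -4.31 (SE 0.55, adjusted p = 0.000257).

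**Figure D3:**
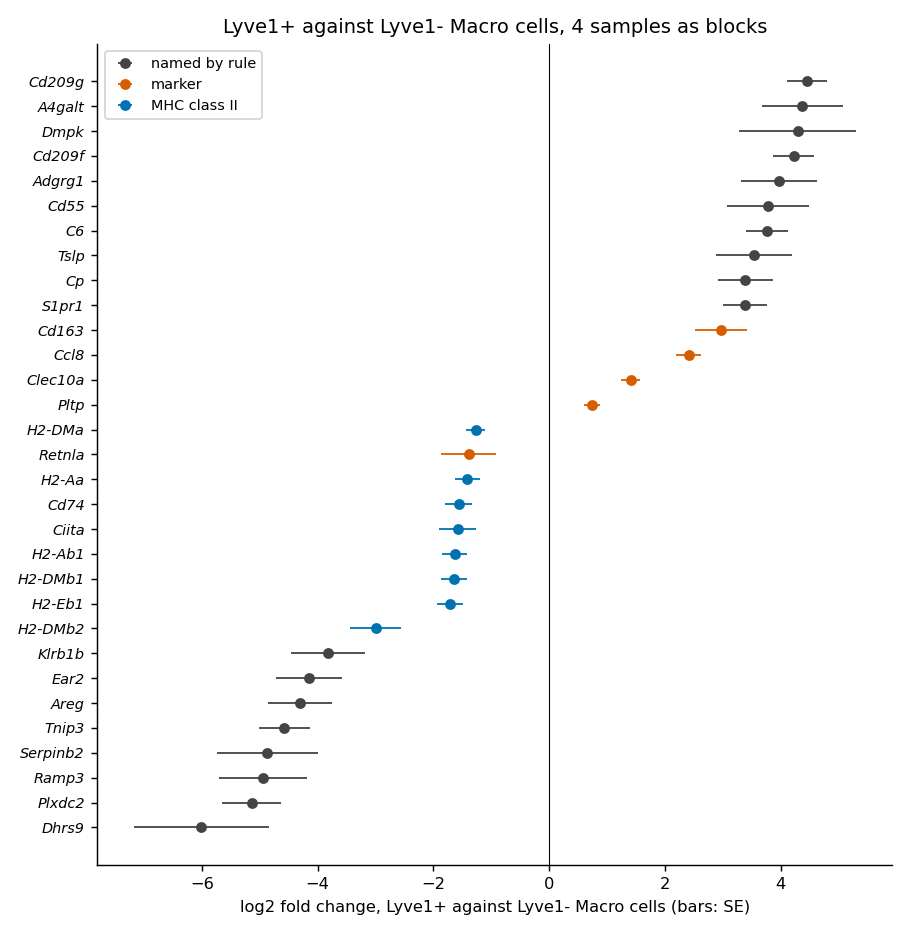
Dots give the log2 fold change of Lyve1+ against Lyve1- Macro cells from the edgeR fit with samples as blocks, and bars its standard error, for the genes named by rule, the markers and the MHC class II genes tested; Prg4 and Alox15, with no UMI in Lyve1+ cells, and Lyve1 are left out. All 8 MHC class II genes tested lie below 0, between -1.26 and -3.00. Dhrs9, which is shown, also had no UMI in Lyve1+ cells.

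By role, the MHC class II genes tested all fell in Lyve1+ cells, and among uptake receptors, complement and growth factor genes more rose than fell. Of 9 MHC class II genes, 8 were tested and all 8 fell, among them H2-Ab1 (chr17:34257689-34269419), which stood at 1999, 1307, 2556 and 4182 CPM in Lyve1+ and 7022, 5766, 8081 and 5939 in Lyve1- cells, a log2 fold change of -1.63 (SE 0.21, adjusted p = 0.000293). Cd74, the invariant chain, had -1.57 (SE 0.23, adjusted p = 0.000804), Ciita, the transactivator of the class, -1.58 (SE 0.32, adjusted p = 0.00564), and H2-DMb2 -3.000 (SE 0.44, adjusted p = 0.000693). Each was lower in 4 of 4 samples, and Ciita alone of them did not pass with thinned cells (adjusted p = 0.503) or without RTT (0.0638). Of 15 uptake receptors other than Lyve1, 12 were tested, 6 rose and 2 fell, with Folr2 at 2.12 (SE 0.19, adjusted p = 1.5e-05) and Stab1, which takes up modified lipoproteins, at 1.95 (SE 0.23, adjusted p = 0.000131), and with Axl and Cd5l lower. Of 22 growth factor and matrix genes, 17 were tested, 6 rose and 3 fell. Gas6, a ligand of the Axl and Mertk receptors, had 2.61 (SE 0.25, adjusted p = 2.16e-05), Igf1 2.39 (SE 0.36, adjusted p = 0.000824) and F13a1, the coagulation factor XIII subunit, 2.02 (SE 0.18, adjusted p = 1.28e-05), while Fn1 (fibronectin) fell with -2.43 (SE 0.25, adjusted p = 4.75e-05). Of 12 complement genes tested 7 rose, C1qa by 0.91 (SE 0.16, adjusted p = 0.00235). The factor Maf rose by 1.55 (SE 0.19, adjusted p = 0.000182), and of 8 general macrophage markers 7 rose.

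Some monocyte, dendritic cell, lectin and lipid genes fell in Lyve1+ cells. Of 5 monocyte markers 2 fell in Lyve1+ cells, Ccr2, the receptor with which monocytes leave the marrow, from 752, 810.3, 837 and 649 to 173, 316, 99.1 and 359 CPM with a log2 fold change of -1.78 (SE 0.25, adjusted p = 0.000547), and Vcan with -2.49 (SE 0.35, adjusted p = 0.00048). Another 2 of the 5 had a positive fold change without passing. Ly6c2 had 0.83 (SE 0.27, adjusted p = 0.07) and Chil3 1.04 (SE 0.61, adjusted p = 0.355). Of 5 cDC2 markers tested 3 fell, Cd209a, Klrb1b and Napsa, while Flt3 was at 0. Mgl2, a lectin close to Clec10a, fell with -2.11 (SE 0.20, adjusted p = 2.16e-05) where Clec10a rose. Lpl fell with -1.53 (SE 0.24, adjusted p = 0.00103) and the lipid carrier Fabp4 with -3.77 (SE 0.66, adjusted p = 0.00284), whereas Apoe rose by 2.14 (SE 0.48, adjusted p = 0.0109). These 3 depended on the setting, with adjusted p of 0.296 for Lpl in thinned cells, 0.0819 for Fabp4 by DESeq2, and for Apoe 0.0579 by DESeq2 and 0.11 without RTT_PTGS12KO. The leukotriene genes split, as Ltc4s, which makes leukotriene C4, rose by 1.79 (SE 0.25, adjusted p = 0.000523) and Ltb4r1, the receptor for leukotriene B4, fell with -2.98 (SE 0.42, adjusted p = 0.00054). The counts of the other lists stand against 4.57% of all genes tested that rose and 5.66% that fell. Of 19 type I interferon genes tested 6 rose and 1 fell, and of 22 type II interferon genes 1 rose and 3 fell, with Cxcl9 at 0.42 (SE 0.60, adjusted p = 0.771). Of 14 C-type lectin genes tested 5 rose and 4 fell, of 15 genes of the IL-4 and IL-13 response 4 rose and 3 fell, of 17 chemokines 4 rose and 1 fell, of 17 transcription factors 3 rose and 2 fell, of 14 lipid genes 4 rose and 2 fell, and of 9 Spp1-type genes 2 rose and 4 fell. Of 12 eicosanoid genes tested 4 rose and 2 fell, of 11 iron and haem genes 2 rose and 1 fell, of 12 immediate early genes 1 rose, and of 4 cell cycle genes none passed.

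NTT was set against RTT to compare Macro cells of a tumour naive to targeted therapy with those of a resistant one. Genes that averaged 100 CPM or more over both samples were counted (the minimum), and a gene was called past a fold of 2 (a log2 ratio of 1 or more in size), with CPM + 1 in the ratio. Of 1404 genes, 87 (6.20%) were higher and 60 (4.27%) lower in NTT, which holds only 21 Macro cells. Of the 9 markers, 8 met the minimum, and 4 were lower and 2 higher by that fold. Ccl8 had a log2 ratio of -1.48 (-1.57 to -1.39), Cd163 -1.37 (-1.93 to -0.87), Lyve1 -1.27 (-1.71 to -0.86) and Clec10a -1.16 (-1.66 to -0.70). Without load 1 each of these 4 was within the fold, at -0.70, -0.69, -0.51 and -0.40, and without load 3 Lyve1 was at -4.12. Retnla was higher by 2.06 (1.54 to 2.64), but its value was -5.85 without load 1 and 0.73 without the cell with most Retnla of each sample. Ear2 was higher by 1.51 (1.03 to 2.004).

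The 5 largest values in favour of NTT were those of Lpl, Gbp2b, Cxcl9, Lyz1 and AA467197. Lpl stood at 1.95 CPM in RTT, 44.2 in RTT_ROSA26, 475 in NTT and 579 in RTT_PTGS12KO, a log2 ratio of 7.33 (6.04 to 10.99), and was found in 2 of 99 RTT, 29 of 130 RTT_ROSA26, 18 of 21 NTT and 73 of 96 RTT_PTGS12KO cells. In cells thinned to 3000 UMIs its shares were 1.03%, 10.4%, 50% and 50% in the same order, against 1.38% of NK cells, so that the share in RTT was at background. Gbp2b, a guanylate-binding protein, stood at 15.6 CPM in RTT, 28.0 in RTT_ROSA26, 401 in NTT and 351 in RTT_PTGS12KO, a log2 ratio of 4.60 (3.92 to 5.55). Both were low in RTT and RTT_ROSA26 and high in NTT and RTT_PTGS12KO. Cxcl9, the chemokine that draws CXCR3+ T cells, had 4.44 (3.87 to 5.19), with 65.7% of the NTT UMIs in 1 cell and 1.44 within Lyve1- cells. Lyz1, a lysozyme, had 3.45 (2.86 to 4.18) and AA467197 2.78 (2.29 to 3.33). The 5 lowest were Lrg1, Fabp5, Apoc2, Spp1 and Egr1. Lrg1, a secreted glycoprotein, stood at 341 CPM in RTT, 247 in RTT_ROSA26, 23.1 in NTT and 25.8 in RTT_PTGS12KO, a log2 ratio of -3.82 (-5.34 to -2.74). Fabp5, a fatty acid carrier, stood at 933 CPM in RTT, 429.8 in RTT_ROSA26, 96.4 in NTT and 311 in RTT_PTGS12KO and had -3.26 (-3.91 to -2.70), Apoc2, an apolipoprotein that activates lipoprotein lipase, -2.90 (-4.42 to -1.80), Spp1 -2.55 (-3.36 to -1.87) and Egr1, an immediate early factor, -2.50 (-2.89 to -2.14). Of 12 immediate early genes, which also respond to tissue digestion, 2 were lower by the fold and their sum differed by -0.63 (-0.71 to -0.55).

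As groups, genes of both interferon responses were higher in NTT. The 22 type II interferon genes summed to 3991 CPM in RTT, 2143 in RTT_ROSA26, 10181 in NTT and 10211 in RTT_PTGS12KO, a log2 ratio of 1.35 (1.28 to 1.42), and 10 of the 14 that met the minimum were higher by the fold. The 19 type I interferon genes summed to 4225 CPM in RTT, 4475 in RTT_ROSA26, 8460.5 in NTT and 5356 in RTT_PTGS12KO, a log2 ratio of 1.002 (0.93 to 1.08), and 5 of 8 were higher. Isg15, a ubiquitin-like protein, stood at 99.4 CPM in RTT, 83.1 in RTT_ROSA26, 332 in NTT and 311 in RTT_PTGS12KO, a log2 ratio of 1.73 (1.31 to 2.17). Irf7, the factor that amplifies type I interferon, stood at 119.8 CPM in RTT, 113 in RTT_ROSA26, 455 in NTT and 161 in RTT_PTGS12KO, a log2 ratio of 1.92 (1.55 to 2.30), and was highest in NTT. In the other macrophages the same sums differed by 2.95 (2.93 to 2.97) and 2.64 (2.62 to 2.66). Clusters in that group had very unlike shares in NTT and RTT, so its ratios here are not within like cells. The lipid list differed by -1.23 (-1.28 to -1.17), but its median over 11 genes was 0.053, and Apoe, the apolipoprotein that carries cholesterol and the most abundant member, had -1.74 (-1.81 to -1.67). MHC class II differed by 0.34 (0.29 to 0.38) and had no gene past the fold among 6. In the other macrophages, where the list summed to 2112 CPM in RTT, 1479 in RTT_ROSA26, 15938 in NTT and 5974 in RTT_PTGS12KO, it differed by 2.92 (2.90 to 2.93). The median over all 1404 genes was 0.04. Beside these values the monocyte marker list differed by 1.40 (1.29 to 1.52), the cDC2 list by 0.97 (0.59 to 1.34), the general macrophage list by -0.60 (-0.66 to -0.53) and the neutrophil list by -0.25 (-0.82 to 0.28), and their part in them was not tested.

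RTT_PTGS12KO was set against RTT_ROSA26 to ask what the Macro cells of a resistant tumour look like when its cancer cells lack both cyclooxygenases. Of 1416 genes, 106 (7.49%) were higher and 106 (7.49%) lower by the fold, against 16 (1.17%) and 23 (1.68%) of 1371 in the control contrast. The median over all genes was 0.14, and TMM scaling moved the type II interferon sum from 2.25 to 2.37, so sums are also given relative to that median. Of the 9 markers, 7 were lower by the fold and none higher. Lyve1 had a log2 ratio of -2.43 (-2.77 to -2.14), Cd163 -2.41 (-2.87 to -2.03), Cd209f -3.72 (-4.32 to -3.27), Pltp -1.68 (-1.82 to -1.55), Ccl8 -1.48 (-1.53 to -1.43) and Clec10a -1.37 (-1.61 to -1.14). Prg4 had -1.09 (-1.33 to -0.86) from 5 cells in each sample, and the sign turned to 0.25 with every cell weighted equally and to 0.26 without load 2. Retnla, at 0.85 (0.73 to 0.97), and Ear2, at 0.24 (0.070 to 0.41), were within the fold. Relative to the median gene, the 9 markers together differed by -1.32. Ccl8 was the most abundant of them. The same sum differed by 1.12 (1.10 to 1.14) in the other macrophages, where Ccl8 alone of the 9 met the minimum.

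Uptake receptors, growth factor genes and complement genes were lower as well. Of 6 uptake receptors that met the minimum, 5 were lower by the fold and none higher. Folr2 stood at 713 CPM in RTT, 904 in RTT_ROSA26, 590.3 in NTT and 186 in RTT_PTGS12KO, a log2 ratio of -2.27 (-2.49 to -2.07). Mrc1, the mannose receptor, stood at 1422 CPM in RTT, 1753 in RTT_ROSA26, 694 in NTT and 559.7 in RTT_PTGS12KO, a log2 ratio of -1.65 (-1.77 to -1.52), and Stab1 had -2.58 (-3.02 to -2.21). RTT_PTGS12KO was the lowest of the 4 samples for both Folr2 and Mrc1. Cbr2, a carbonyl reductase, had -3.04 (-3.35 to -2.77). Of 9 growth factor and matrix genes 7 were lower. Gas6 stood at 276 CPM in RTT, 417 in RTT_ROSA26, 119.6 in NTT and 36.0 in RTT_PTGS12KO, a log2 ratio of -3.50 (-4.004 to -3.09), and F13a1 at 1077 CPM in RTT, 1171 in RTT_ROSA26, 367 in NTT and 217 in RTT_PTGS12KO, a log2 ratio of -2.43 (-2.63 to -2.24). Apoe stood at 21692 CPM in RTT, 22913 in RTT_ROSA26, 6489 in NTT and 3041 in RTT_PTGS12KO, a log2 ratio of -2.91 (-2.96 to -2.87), and the lipid list at -1.998 (-2.03 to -1.96), with a median of -0.47 over 11 genes. Of 10 complement genes 5 were lower, C1qa with -1.24 (-1.33 to -1.16) and Cfp, which encodes properdin, with -1.14 (-1.28 to -0.996). The lectin Cd209d had -2.88 (-3.53 to -2.37). Timd4, which is under the minimum, had -0.013 (-0.79 to 0.77) and was found in 8 of 130 RTT_ROSA26 and 8 of 96 RTT_PTGS12KO cells, against 2 of 1054 NK cells, and in 4.80% and 4.17% of thinned cells. Maf had -1.71 (-1.90 to -1.53), and Klf2, a factor induced by blood flow, -0.096 (-0.30 to 0.11). Of 15 chemokines that met the minimum 6 were higher and 5 lower by the fold, with a median log2 ratio of 0.47. Ccl6 and Ccl9 had -1.30 (-1.35 to -1.24) and -1.39 (-1.51 to -1.28), whereas Cxcl2 had 1.17 (1.08 to 1.27) and Ccl5 2.75 (2.24 to 3.41). In the control contrast Cxcl2 and Ccl5 had -1.93 and -2.97, larger in size and of the other sign. Ccl6 and Ccl9 had 0.11 and 0.22 there.

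The 5 lowest values were those of Mucl1, Ccl24, Cd209f, Gas6 and Rcn3. Mucl1, a mucin-like gene, rested on 1 cell of RTT_ROSA26 with 99.7% of its UMIs, and without the top cell of each sample its log2 ratio was 1.78. Ccl24, a chemokine that draws eosinophils, stood at 19.5 CPM in RTT, 367 in RTT_ROSA26, 108 in NTT and 20.4 in RTT_PTGS12KO, a log2 ratio of -4.11 (-4.80 to -3.60), and was found in 29.6% of RTT_ROSA26 and 5.21% of RTT_PTGS12KO cells after thinning, against 0.198% of NK cells. Rcn3, a calcium-binding protein of the endoplasmic reticulum, stood at 142 CPM in RTT, 204 in RTT_ROSA26, 7.72 in NTT and 17.2 in RTT_PTGS12KO, a log2 ratio of -3.49 (-4.27 to -2.93). The 5 highest were Cxcl9, AW112010, Lpl, Gbp2b and Cxcl10. Cxcl9 (chr5:92321347-92328079, minus strand) stood at 23.4 CPM in RTT, 5.42 in RTT_ROSA26, 529 in NTT and 661 in RTT_PTGS12KO, a log2 ratio of 6.69 (5.80 to 8.38), and was found in 11 of 99 RTT, 6 of 130 RTT_ROSA26, 8 of 21 NTT and 58 of 96 RTT_PTGS12KO cells. After thinning its shares were 5.15%, 1.60%, 25.0% and 50% in that order, against 7.21% of NK cells, so that those of RTT and RTT_ROSA26 were at background. Cxcl10, the other main CXCR3 ligand, stood at 138 CPM in RTT, 84.0 in RTT_ROSA26, 201 in NTT and 925 in RTT_PTGS12KO, a log2 ratio of 3.45 (3.16 to 3.78). AW112010, a transcript induced by interferon-gamma, stood at 726 CPM in RTT, 244 in RTT_ROSA26, 2014 in NTT and 3218 in RTT_PTGS12KO, a log2 ratio of 3.72 (3.54 to 3.91), and Lpl had 3.68 (3.29 to 4.16) and Gbp2b 3.60 (3.12 to 4.23). In the other macrophages Lpl had 0.38.

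Interferon-gamma genes were higher as a group. The 22 type II interferon genes had a log2 ratio of 2.25 (2.19 to 2.32), or 2.11 relative to the median gene, and all 15 that met the minimum were higher by the fold. Gbp2 stood at 292 CPM in RTT, 188 in RTT_ROSA26, 571 in NTT and 1163 in RTT_PTGS12KO with 2.62 (2.42 to 2.85). Fgl2, a prothrombinase, had 3.36 (3.10 to 3.66), the GTPases Igtp and Irgm1 2.26 (1.87 to 2.73) and 1.55 (1.26 to 1.88), Irf1 1.61 (1.32 to 1.92) and Ly6a 2.29 (2.17 to 2.42). Gbp5 was under the minimum, at 24.4 CPM in RTT, 15.3 in RTT_ROSA26, 69.4 in NTT and 121 in RTT_PTGS12KO. The list summed to 10211 CPM in RTT_PTGS12KO, against 10181 in NTT, and was lowest in RTT_ROSA26. The 19 type I interferon genes differed by 0.26 (0.21 to 0.31), with 2 of 8 past the fold and a median of 0.45. Isg15 had 1.89 (1.57 to 2.25) and Irf7 0.51 (0.19 to 0.85). In the other macrophages the type II and type I lists differed by 3.25 (3.23 to 3.26) and 0.999 (0.99 to 1.01). MHC class II differed by 0.61 (0.58 to 0.64) in Macro cells and by 2.01 (2.01 to 2.02) in the other macrophages, with sums of 15371 CPM in RTT, 13661 in RTT_ROSA26, 19432 in NTT and 20851 in RTT_PTGS12KO in Macro cells. Beside these values the monocyte marker list differed by 0.84 (0.75 to 0.94), the cDC2 list by 0.65 (0.43 to 0.86), the general macrophage list by -1.01 (-1.05 to -0.97) and a list of 4 neutrophil markers by -1.65 (-1.90 to -1.41). The part of these cell type markers in the differences of the knockout contrast was not tested.

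Promoters of the type II list are shown for Gbp2b, which is among the 5 highest genes of both contrasts, and for Gbp5, which holds both interferon motifs. TTCNNNGAA is the form of the gamma-activated sequence, and interferon regulatory factors are known to bind GAAANNGAAA. Each window is the 250 bases before the RefSeq start on the plus strand of GRCm38.p6, at chr3:142594597-142594846 for Gbp2b and chr3:142496684-142496933 for Gbp5, with matches on either strand in capitals. The Gbp5 window lies inside the span of that gene in the other annotation, chr3:142493978-142522344.
Gbp2b: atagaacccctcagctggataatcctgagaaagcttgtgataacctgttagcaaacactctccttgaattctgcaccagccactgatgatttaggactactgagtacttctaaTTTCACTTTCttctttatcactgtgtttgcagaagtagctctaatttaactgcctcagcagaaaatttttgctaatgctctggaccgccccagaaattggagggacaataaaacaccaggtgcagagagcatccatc
Gbp5: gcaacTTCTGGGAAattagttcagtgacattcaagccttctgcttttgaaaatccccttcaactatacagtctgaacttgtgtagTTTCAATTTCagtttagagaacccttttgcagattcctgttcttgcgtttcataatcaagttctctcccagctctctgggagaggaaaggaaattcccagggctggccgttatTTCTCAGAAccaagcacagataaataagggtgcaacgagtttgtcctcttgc
Gbp2b holds 1 GAAANNGAAA match, on the minus strand, 137 bases before the start. Gbp5 holds TTCNNNGAA matches 245 and 52 bases before the start and a GAAANNGAAA match 165 bases before it, and no match overlaps another. Promoters were found for 17 of the 22 genes. Counting a gene if any promoter of it matched, 8 (47.1%) held TTCNNNGAA, 12 (70.6%) GAAANNGAAA and 14 at least 1 of them. Counted per promoter and not per gene, the shares over 32851 promoters were 7.02% and 2.98%. Among 14 genes of the type I list with a promoter, 2 and 7 held these motifs, and among 6 of MHC class II, 1 and 0.

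**Figure D4:**
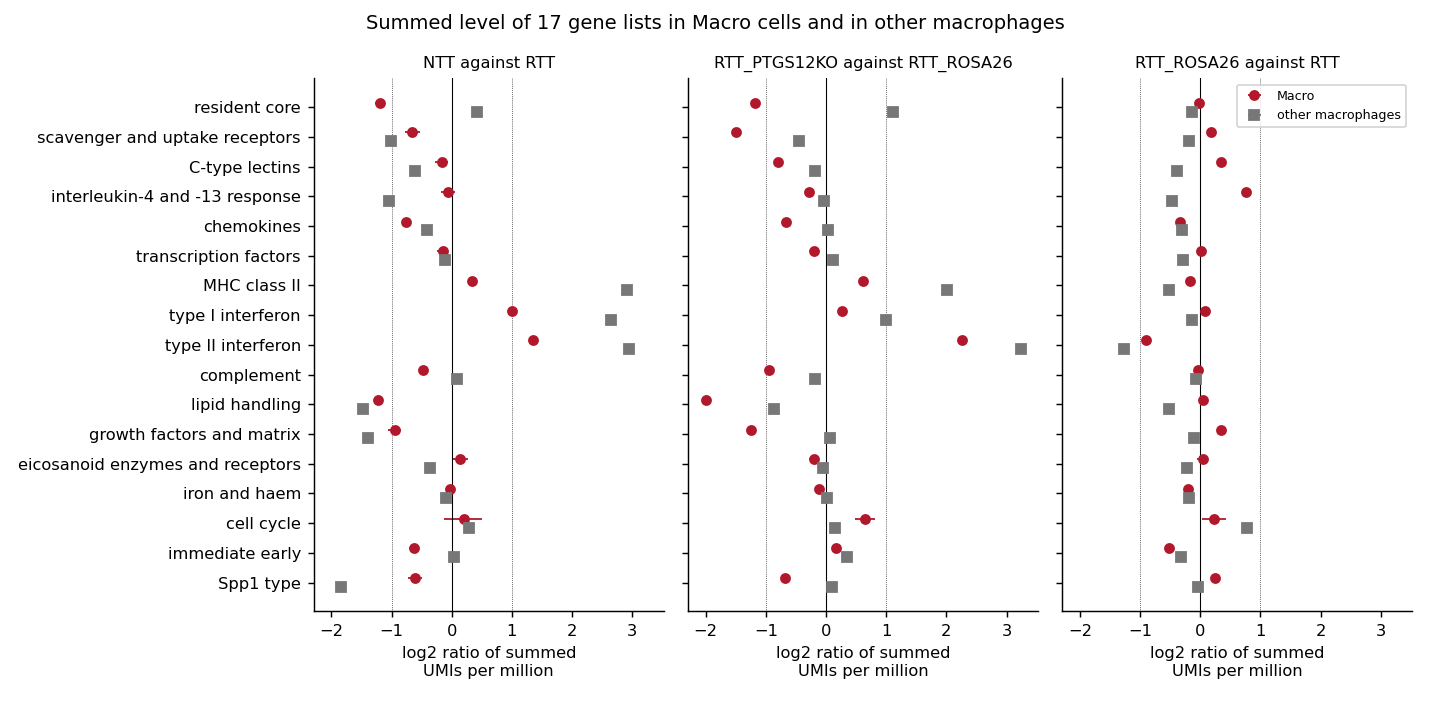
Points give the log2 ratio of the summed CPM of 17 gene lists in Macro cells (circles, with 95% counting intervals) and in the other macrophages (squares) for the 3 contrasts, and dotted lines mark a fold of 2. In the knockout contrast the type II interferon list is at 2.25 and the 9 markers (resident core) at -1.18 in Macro cells, where the other macrophages have 3.25 and 1.12.

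The knockout held fewer Lyve1+ cells, and within them the sum of the 9 markers was close to that of RTT_ROSA26. Some of the resident genes named here were lower within these cells, and Ccl8 was higher. Within the 85 and 72 Lyve1- cells of RTT_PTGS12KO and RTT_ROSA26 alone, the 9 markers differed by -0.89, and within the 11 and 58 Lyve1+ cells by -0.019. In Lyve1+ cells the markers summed to 21552 CPM in RTT, 21368 in RTT_ROSA26, 13009 in NTT and 21084 in RTT_PTGS12KO (5 cells in NTT), most of it Ccl8. That sum hides differences between genes. Within the Lyve1+ cells of RTT_PTGS12KO and RTT_ROSA26, Ccl8 stood at 18042 against 15765 CPM. Pltp stood at 726 against 2015 and Clec10a at 373 against 685, the latter from 54 and 358 UMIs. Cd209f stood at 124 against 741, from 18 and 387 UMIs in 3 of 11 and 22 of 58 cells. Cd163, at 339 against 385 from 49 and 201 UMIs, differed little. Ear2, at 179.7 against 13.4, came from 1 cell in each sample, and Retnla, at 594 against 840.1, from 1 cell of RTT_PTGS12KO and 5 of RTT_ROSA26. No direction is given for Cd163, Cd209f, Ear2 and Retnla. Outside the markers, Folr2 stood at 781 against 1544 CPM, Gas6 at 159 against 710.0 (23 and 371 UMIs) and Apoe at 9906 against 32215 in the same cells. The uptake receptors, Lyve1 included, summed to 3850.4 against 6154 CPM and the lipid list to 13784 against 38098. So Ccl8 was higher in Lyve1+ cells of the knockout, while Pltp, Clec10a, Folr2, Gas6, Apoe and both lists were lower, with no replicate check. The type II interferon list was higher in both kinds of cell, by 2.16 in Lyve1- and 2.48 in Lyve1+ cells. MHC class II differed by 0.025 within Lyve1- cells and by 1.58 within Lyve1+ cells. The MHC class II sum was 25615 CPM in RTT, 21106 in RTT_ROSA26, 25649.7 in NTT and 21474 in RTT_PTGS12KO in Lyve1- cells and 7631 CPM in RTT, 5326 in RTT_ROSA26, 7898 in NTT and 15968 in RTT_PTGS12KO in Lyve1+ cells. Lyve1- cells were thus the higher in all 4 samples, by a smaller margin in RTT_PTGS12KO. In the therapy contrast, MHC class II differed by 0.0020 within Lyve1- and 0.050 within Lyve1+ cells, and the type II list by 1.29 and 1.27. Counting genes in Lyve1- cells only, 86 were higher and 67 lower by the fold in the knockout, of 1388 that met the minimum.

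**Figure D5:**
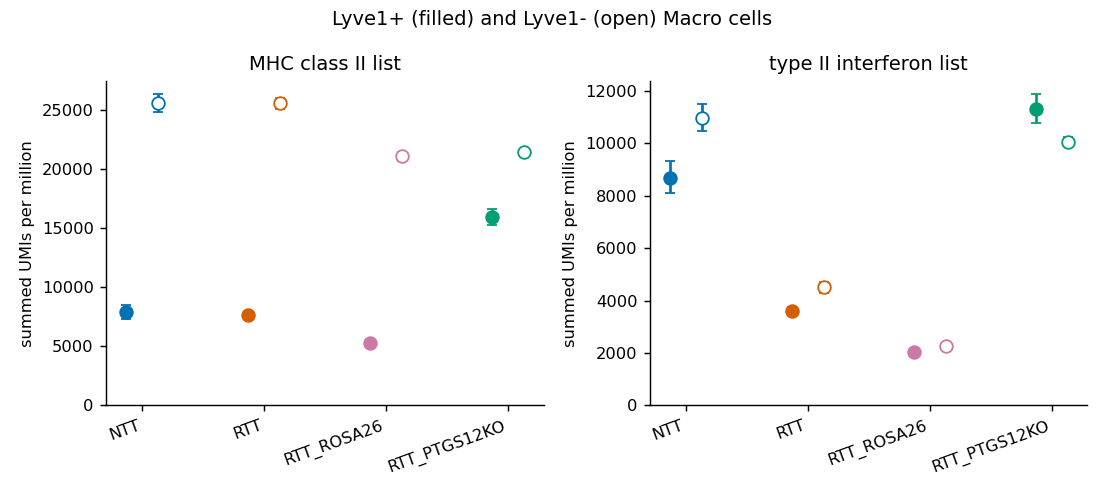
Circles give the summed CPM of the MHC class II list (left) and the type II interferon list (right) in Lyve1+ (filled) and Lyve1- (open) Macro cells of each sample, with exact Poisson 95% intervals. MHC class II is higher in Lyve1- cells of all 4 samples, while the type II list separates NTT and RTT_PTGS12KO, at 8691 to 11323, from RTT and RTT_ROSA26, at 2023 to 4505.

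RTT_ROSA26 against RTT, resistant tumours that keep Ptgs1 and Ptgs2, gave the smallest counts, 16 genes higher and 23 lower of 1371. The 5 highest values were those of Prg4, Mucl1, Ccl24, Retnla and Slpi. Prg4 was at least 134-fold higher, against a floor of 3 UMIs in RTT. Mucl1 came from 2 cells. Ccl24 had a log2 ratio of 4.17 (3.59 to 4.96) and was found in 29.6% of RTT_ROSA26 and 3.09% of RTT cells after thinning. Retnla had 3.76 (3.40 to 4.20) and Ear2 2.38 (2.06 to 2.74), so that the difference in these markers between resistant tumours that keep both genes was larger than that between RTT_PTGS12KO and RTT_ROSA26. Slpi, an inhibitor of leukocyte proteases, had 3.73 (3.14 to 4.53), with 54.0% of its RTT_ROSA26 UMIs in 1 cell. Of 7 genes of the IL-4 and IL-13 response that met the minimum 4 were higher by the fold, and the list differed by 0.76 (0.69 to 0.83). The 4 neutrophil markers summed to 161 CPM in RTT, 478 in RTT_ROSA26, 135 in NTT and 152 in RTT_PTGS12KO and differed by 1.57 (1.32 to 1.83) in the same contrast, and their part in it was not tested. The IL-4 and IL-13 list differed by -0.060 (-0.18 to 0.062) in the therapy contrast and -0.28 (-0.34 to -0.22) in the knockout contrast.

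The 5 lowest values in the control contrast were those of the chemokines Ccl5, Cxcl1 and Cxcl2, of Tnf and of Ly6a. Cxcl2, a neutrophil chemokine, stood at 4248 CPM in RTT, 1118 in RTT_ROSA26, 1308 in NTT and 2517 in RTT_PTGS12KO, a log2 ratio of -1.93 (-2.02 to -1.83). Cxcl1 had -2.41 (-2.93 to -1.98), Tnf -1.89 (-2.41 to -1.45) and Ly6a -1.74 (-1.87 to -1.61). Ccl5 had -2.97 (-3.63 to -2.45), with 73.7% of its RTT UMIs in 1 cell and -1.29 without the top cell of each sample. Of 15 chemokines that met the minimum 6 were lower by the fold and 1 higher. Cxcl9 did not meet it, with 6 UMIs in RTT_ROSA26 and 24 in RTT. The type II interferon list differed by -0.90 (-0.97 to -0.82) with 1 gene of 9 past the fold, which is smaller than the 2.25 of the knockout contrast and of the other sign. Of the 9 markers, 4 were higher by the fold and none lower, namely Retnla, Ear2, Prg4 and Cd209f, the last with 1.72 (1.42 to 2.04). Lyve1, Cd163, Pltp, Ccl8 and Clec10a stayed within the fold, at -0.18, -0.45, 0.044, -0.25 and 0.27. Their log2 ratios in the knockout contrast were -2.43, -2.41, -1.68, -1.48 and -1.37.

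Other lists are given by their sums. Eicosanoid enzymes and receptors summed to 2027 CPM in RTT, 2081 in RTT_ROSA26, 2241 in NTT and 1818 in RTT_PTGS12KO. The log2 ratios of that sum were 0.14 (0.0096 to 0.28) in the therapy contrast and -0.20 (-0.28 to -0.11) in the knockout contrast. Within that list Ptgs2, the inducible cyclooxygenase, was at 221 CPM in RTT, 149 in RTT_ROSA26, 177 in NTT and 319 in RTT_PTGS12KO in the macrophages themselves, and Ltc4s at 250.4 CPM in RTT, 321 in RTT_ROSA26, 84.9 in NTT and 44.6 in RTT_PTGS12KO. Ptgs1 was low, at 16.6 CPM in RTT, 37.9 in RTT_ROSA26, 15.4 in NTT and 16.4 in RTT_PTGS12KO. The iron and haem list differed by -0.023 (-0.070 to 0.023) and -0.12 (-0.15 to -0.087), and the transcription factor list by -0.15 (-0.24 to -0.060) and -0.20 (-0.25 to -0.14). The cell cycle list summed to 360.5 CPM in RTT, 424 in RTT_ROSA26, 413 in NTT and 667 in RTT_PTGS12KO, below the 1151 to 2189 CPM of the other macrophages, with a log2 ratio of 0.65 (0.49 to 0.82) in the knockout contrast. Of the 18242 other macrophages, 4618 were named TAM_cycling. The Spp1-type list differed by -0.61 (-0.73 to -0.49) and -0.67 (-0.73 to -0.61), and the C-type lectins by -0.17 (-0.27 to -0.059) and -0.80 (-0.86 to -0.74). Mgl2 stood at 108 CPM in RTT, 395 in RTT_ROSA26, 312 in NTT and 383 in RTT_PTGS12KO.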

How the data were processed

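Live CD45+ cells of the 4 samples were tagged with lipid-bound oligonucleotides, pooled and run as 3 droplet loads with 3' chemistry. The authors aligned reads to mm10 with Cell Ranger, kept cells in which more than 1000 genes were found and mitochondrial and ribosomal UMIs stayed below 15% and 40%, corrected across experimental batches with Harmony, used Seurat 4.3.0, and gave 17 cell type names. The deposited values are raw UMI counts of 32285 genes in 33368 cells. Doublets between samples were removed by the authors' tags, no doublet caller was run here, and the tags cannot remove doublets within a sample. Free RNA is common to all samples of a load.

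Counts were summed over the Macro cells of each sample and given here as CPM. Contrasts between samples hold 1 sample a group and carry no test. A gene was counted at 100 CPM or more in the mean of both samples and called at a fold of 2 with a pseudocount of 1 CPM. Intervals are exact Poisson for sums, Clopper-Pearson for shares and exact conditional binomial for ratios, at 95%. Where a gene had no UMI in a group, the bound uses a floor of 3 counts in that sample. Lyve1+ and Lyve1- Macro cells were summed separately in each sample and compared with edgeR 4.0.16 (quasi-likelihood, filterByExpr, TMM, sample as block, Benjamini-Hochberg), with SE taken as the fold change over the square root of F. The pairs come from the same tumour, and the deviations of the Lyve1+ and Lyve1- sums from their means correlated at 0.219 in RTT, 0.354 in RTT_ROSA26, 0.0516 in NTT and 0.223 in RTT_PTGS12KO. Detection shares were also computed in cells thinned to 3000 UMIs.

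Named genes are the 9 markers, 30 genes chosen by role (1 of them is not reported here), the 15 leading genes against other macrophages, the 5 highest and 5 lowest per contrast with at least 20 UMIs in the higher sample, and the 10 highest and 10 lowest of the Lyve1 test. Other list members named as examples were chosen after their values were seen. The members and lists were chosen with earlier results of these data known. Alternatives were TMM factors, cells weighted equally, leaving out each load or sample, other minimums and pseudocounts, stricter cell filters, leaving out the 5% deepest cells, DESeq2 1.42.0, and those added after seeing the data. The scripts were tested on simulated data. Promoters are from RefSeq, GRCm38.p6, as windows of 250 bases before the start. Analyses ran in Python 3.11.15 with scipy 1.17.1 and R 4.3.3.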

Additional observations from a re-analysis of the deposited data

Results flagged for a closer look

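The summed level of the 9 markers moved in opposite directions in Macro cells and in the other macrophages of the same samples. Only Ccl8 met the minimum of 100 CPM in the other macrophages and the other 8 markers were below it, so the sum there is mostly that of Ccl8. In the therapy contrast their sum had a log2 ratio of -1.20 in Macro cells and 0.41 in the other macrophages. In the knockout contrast it was -1.18 in Macro cells and 1.12 in the other macrophages. With 1 sample in each group the difference between the cell types was not tested. The sum in the other macrophages was 286 CPM in RTT, 260.0 in RTT_ROSA26, 381 in NTT and 565 in RTT_PTGS12KO, against 14763 CPM in RTT, 14558 in RTT_ROSA26, 6427 in NTT and 6432 in RTT_PTGS12KO in Macro cells.

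Cells with the marker pattern were also found outside the Macro name. Of 33022 cells with another name, 208 held UMIs of at least 4 of the 9 markers, among them 87 named TAM_cycling, 83 named TAM_C1q and 12 named Monocyte_1, against 160 of 346 Macro cells. The cells among them with a TAM name or the name Ctsk_Macro are part of the other macrophages, and no comparison used the 208 as a group of their own. No group has 4 samples or more, so no sample could be tested as standing apart from its group.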

How the results depend on the processing

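The settings that take Lyve1+ or Lyve1- cells only, leave out the cell with most UMIs of a gene, or drop the sample block were chosen after seeing the data. The log2 ratio of Macro shares in the therapy contrast turned to 2.14 of macrophage-named cells and was -3.22 for any cell with at least 4 markers, and that in the knockout contrast was -0.23 of macrophage-named cells. With 21 Macro cells in NTT, single cells and loads weigh on its values, and depth limits genes with few UMIs in each sample. In the therapy contrast, 183 genes were higher and 111 lower by the fold at a minimum of 50 CPM, 40 and 32 at 200 CPM, and 1574 and 2307 with no minimum. In the knockout contrast, 168 genes were higher and 173 lower by the fold at a minimum of 50 CPM, 56 and 49 at 200 CPM, and 1029 and 1737 with no minimum. In the control contrast, 29 genes were higher and 43 lower by the fold at a minimum of 50 CPM, 7 and 11 at 200 CPM, and 1122 and 685 with no minimum. In Lyve1- cells only, 67 genes were lower in RTT_PTGS12KO than in RTT_ROSA26. In the Lyve1 comparison, leaving out each sample gave 142 to 302 genes higher and 110 to 368 lower, the low end without RTT, DESeq2 173 and 194, and thinned cells 102 and 138. With no replicate block for the sample, 77 genes were higher and 66 lower, all among those called with it. Without the block, Cd163, Pltp, Ear2, Stab1, Gas6, Igf1, Fn1, C1qa and Vcan did not pass. No paired analysis was possible because the groups have 1 sample each, so the contrasts between samples have no block.

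The sums of the 9 markers and of MHC class II, type I and type II interferon genes are given as log2 ratios where a setting moved them past the counting interval, and a value left out did not move. In the therapy contrast, sums moved under these settings. With TMM factors, the values were -1.28 for the 9 markers, 0.26 for MHC class II, 0.92 for type I interferon and 1.27 for type II interferon. With every cell weighted equally, the values were -1.43 for the 9 markers, 0.27 for MHC class II and 1.28 for type II interferon. As medians over the genes that met the minimum, the values were -0.86 for the 9 markers and 1.20 for type II interferon. In Lyve1- cells only, the values were -1.004 for the 9 markers, 0.0020 for MHC class II and 1.17 for type I interferon. In Lyve1+ cells only, the values were -0.73 for the 9 markers, 0.050 for MHC class II, 1.23 for type I interferon and 1.27 for type II interferon. In cells with at least 2 markers, the values were -1.28 for the 9 markers and 0.46 for MHC class II. Without the 5% deepest cells, the values were -1.47 for the 9 markers, 0.81 for type I interferon and 1.27 for type II interferon. Leaving out each of the 3 loads gave -2.09 to -0.59 for the 9 markers, -0.13 to 0.61 for MHC class II, 0.64 to 1.21 for type I interferon and 1.17 to 1.45 for type II interferon. In the knockout contrast, sums moved under these settings. With TMM factors, the values were -1.06 for the 9 markers, 0.73 for MHC class II, 0.38 for type I interferon and 2.37 for type II interferon. With every cell weighted equally, the values were -1.01 for the 9 markers, 0.45 for MHC class II and 2.08 for type II interferon. As medians over the genes that met the minimum, the values were -1.48 for the 9 markers, 0.65 for MHC class II and 0.45 for type I interferon. In Lyve1- cells only, the values were -0.89 for the 9 markers, 0.025 for MHC class II, 0.68 for type I interferon and 2.16 for type II interferon. In Lyve1+ cells only, the values were -0.019 for the 9 markers, 1.58 for MHC class II and 2.48 for type II interferon. In cells with at least 2 markers, the value was -1.10 for the 9 markers. Without the 5% deepest cells, the values were 0.51 for MHC class II and 2.18 for type II interferon. With totals that leave out mitochondrial and ribosomal protein genes, the values were -1.14 for the 9 markers and 0.65 for MHC class II. In cells with over 1500 genes and under 10% mitochondrial UMIs, the value was -1.38 for the 9 markers. Leaving out each of the 3 loads gave -1.39 to -1.06 for the 9 markers, 0.51 to 0.75 for MHC class II, -0.0033 to 0.51 for type I interferon and 2.09 to 2.51 for type II interferon. In the control contrast, sums moved under these settings. With TMM factors, the values were -0.11 for the 9 markers, -0.26 for MHC class II, -0.0066 for type I interferon and -0.99 for type II interferon. With every cell weighted equally, the values were -0.054 for the 9 markers, -0.27 for MHC class II and 0.18 for type I interferon. As medians over the genes that met the minimum, the values were 0.27 for the 9 markers, -0.11 for MHC class II, -0.035 for type I interferon and -0.50 for type II interferon. In Lyve1- cells only, the values were 0.55 for the 9 markers, -0.28 for MHC class II, 0.19 for type I interferon and -1.002 for type II interferon. In Lyve1+ cells only, the values were -0.52 for MHC class II and 0.16 for type I interferon. In cells with at least 2 markers, the values were -0.085 for the 9 markers and -0.079 for MHC class II. Without the 5% deepest cells, the values were -0.14 for the 9 markers and -0.23 for MHC class II. Leaving out each of the 3 loads gave -0.26 to 0.27 for the 9 markers, -0.30 to -0.10 for MHC class II, -0.18 to 0.33 for type I interferon and -1.14 to -0.79 for type II interferon.

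Among named genes, a called log2 ratio turned sign in these cases. In the therapy contrast, leaving out each load gave -5.85 to 2.78 for Retnla and -0.51 to 2.49 for Clec4b1, both lowest without load 1, -0.045 to 2.85 for Cd209g and -4.31 to 3.06 for Ccl24, both lowest without load 3, and -3.23 to 4.32 for Ccl5, lowest without load 2. There, Lyve1- cells alone gave -2.47 for Cd209g, -3.33 for Ccl24 and -0.16 for Ccl5, Ccl24 was -4.15 without its top cells, and the lipid list had a median of 0.053. In the knockout contrast, Prg4 was 0.25 with cells weighted equally and -2.07 to 0.26 over the loads left out, highest without load 2, and Mucl1 was -4.91 to 1.22 over the loads, highest without load 3, and 1.78 without its top cells. In the control contrast, leaving out each load gave -0.20 to 2.23 for Vsig4, lowest without load 2, and 0 to 8.65 for Mucl1, lowest without load 3, and AA467197 was 0.11 without the 5% deepest cells. The cause was not tested.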

Other observations

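Of the 5 monocyte markers, Ly6c2 and Plac8 were higher by the fold in both the therapy and the knockout contrast, and the others were not. The genes of this paragraph were chosen after their values were seen. Ly6c2, a surface protein of inflammatory monocytes, stood at 132 CPM in RTT, 28.9 in RTT_ROSA26, 829 in NTT and 233 in RTT_PTGS12KO, or log2 ratios of 2.64 (2.33 to 2.97) in the therapy contrast and 2.97 (2.48 to 3.58) in the knockout contrast. Plac8 stood at 753 CPM in RTT, 544 in RTT_ROSA26, 2369 in NTT and 1305 in RTT_PTGS12KO. Ccr2 had log2 ratios of 0.46 (0.18 to 0.73) and 0.095 (-0.058 to 0.25) in these contrasts. Vcan, a matrix proteoglycan, had -0.58 (-1.31 to 0.070) and -1.41 (-2.10 to -0.82), and Chil3, a chitinase-like protein, 0.34 (-0.54 to 1.16) and 0.80 (-0.12 to 1.88), neither above 128 CPM in any sample. Ccl2 and Ccl7, chemokines that draw monocytes through CCR2, had log2 ratios of -0.11 (-0.32 to 0.089) and -0.31 (-0.54 to -0.089) in the therapy contrast, 1.63 (1.47 to 1.79) and 1.26 (1.08 to 1.44) in the knockout contrast, and -1.49 (-1.67 to -1.33) and -1.57 (-1.75 to -1.40) in the control contrast. Pf4, platelet factor 4, which tissue-resident macrophages also make, stood at 2032 CPM in RTT, 1865 in RTT_ROSA26, 910.5 in NTT and 238 in RTT_PTGS12KO. Nos2, the inducible nitric oxide synthase, stood at 0.974 CPM in RTT, 1.81 in RTT_ROSA26, 162 in NTT and 39.1 in RTT_PTGS12KO.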
